A study of Homo sapiens with 6 samples.

Results

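The ZNF genes of chromosome 19 are the rows of the deposited table whose symbol is ZNF followed only by digits and whose location is on chromosome 19. They number 241 of the 58219 genes in the table, against 237 ZNF genes on other chromosomes, and 239 of the 241 are annotated as protein-coding. Expression was measured by sequencing of messenger RNA from IMR90, a diploid fibroblast line that was derived from lung. All 6 samples carried ER-RAS, given in the study's design as ER-RASG12V, an oncogenic RAS joined to an oestrogen receptor domain so that 4-hydroxytamoxifen (4OHT) switches it on. The 30 h group (3 libraries, letters A, B and C) had 100 nM 4OHT for 30 h and is called uncommitted in the labels. The 72 h group (3 libraries, same letters) had 100 nM 4OHT for 72 h and is called committed, in a study of commitment to senescence. The titles write the shorter time as 1.5 days and the protocol as 30 h. Both groups received the inducer, so the comparison is between a later and an earlier time of RAS activation, with no uninduced cells, and what the solvent or the inducer alone did was not measured here.

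Most of these genes encode KRAB zinc finger proteins, the largest family of sequence-specific DNA-binding proteins in the human genome. A string of C2H2 fingers at the end of the protein reads the DNA sequence, and the KRAB box at its start binds TRIM28, which brings in the histone methyltransferase SETDB1, HP1 proteins and histone deacetylases to form heterochromatin. The family expanded by tandem duplication, and many members bind and silence retrotransposons. The genes lie on chromosome 19 in arrays of neighbours that arose as copies, so members share sequence, including promoter sequence.

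The promoters of members described further on are shown first, because arrays differed in how their members moved and neighbours share stretches of promoter. Each is the RefSeq window on GRCh38.p14 from 250 bases before the annotated start to 50 bases after it, written in the direction of transcription, and positions are counted from 0 at the start. The first set is ZNF121 (chr19:9584455-9584754, minus strand), ZNF561 (chr19:9621183-9621482, minus strand) and ZNF562 (chr19:9675051-9675350, minus strand), neighbours that all rose at 72 h. Capitals mark the 17 bases of the longest stretch that is identical in all 3. They contain the cyclic AMP response element (CRE) TGACGTCA, and begin at -58, -31 and -15 from the start. The fourth line is ZNF426 (chr19:9538596-9538895, minus strand), a neighbour in the same array that was not called, with its own CRE in capitals.
ZNF121: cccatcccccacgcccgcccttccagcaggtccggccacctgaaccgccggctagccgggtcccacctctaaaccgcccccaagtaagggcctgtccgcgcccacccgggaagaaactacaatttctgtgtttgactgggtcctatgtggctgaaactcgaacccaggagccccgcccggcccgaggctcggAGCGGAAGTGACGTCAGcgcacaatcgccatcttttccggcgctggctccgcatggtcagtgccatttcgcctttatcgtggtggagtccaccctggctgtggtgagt
ZNF561: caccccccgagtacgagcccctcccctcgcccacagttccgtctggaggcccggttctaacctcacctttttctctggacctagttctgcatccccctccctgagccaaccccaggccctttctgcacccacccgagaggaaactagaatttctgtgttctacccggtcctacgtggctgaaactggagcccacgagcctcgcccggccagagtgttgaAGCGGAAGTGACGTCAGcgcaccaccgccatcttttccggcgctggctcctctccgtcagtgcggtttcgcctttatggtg
ZNF562: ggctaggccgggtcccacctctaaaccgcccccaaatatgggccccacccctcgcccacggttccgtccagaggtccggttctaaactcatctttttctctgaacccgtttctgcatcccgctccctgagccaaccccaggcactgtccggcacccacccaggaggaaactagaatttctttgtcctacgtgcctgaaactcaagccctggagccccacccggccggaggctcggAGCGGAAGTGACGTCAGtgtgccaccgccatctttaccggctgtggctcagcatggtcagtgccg
ZNF426: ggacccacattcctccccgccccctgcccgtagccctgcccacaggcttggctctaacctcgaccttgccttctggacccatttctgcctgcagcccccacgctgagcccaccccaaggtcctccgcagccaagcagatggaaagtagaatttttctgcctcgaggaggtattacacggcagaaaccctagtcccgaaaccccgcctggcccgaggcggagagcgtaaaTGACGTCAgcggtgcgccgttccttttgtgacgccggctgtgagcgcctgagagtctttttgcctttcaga

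The second set comes from the array beside the centromere. ZNF85 (chr19:20923001-20923300, plus strand) and ZNF726 (chr19:23914636-23914935, plus strand) fell at 72 h, and ZNF91 (chr19:23395422-23395721, minus strand) was not called. Capitals mark the longest stretch that ZNF85 and ZNF726 share, of 23 bases, which the window of ZNF91 also holds.
ZNF85: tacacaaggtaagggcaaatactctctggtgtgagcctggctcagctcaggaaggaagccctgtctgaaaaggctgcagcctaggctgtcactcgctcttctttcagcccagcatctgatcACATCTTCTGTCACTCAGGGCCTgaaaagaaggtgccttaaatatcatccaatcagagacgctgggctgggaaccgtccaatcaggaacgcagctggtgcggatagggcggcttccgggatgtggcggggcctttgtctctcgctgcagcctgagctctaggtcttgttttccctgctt
ZNF726: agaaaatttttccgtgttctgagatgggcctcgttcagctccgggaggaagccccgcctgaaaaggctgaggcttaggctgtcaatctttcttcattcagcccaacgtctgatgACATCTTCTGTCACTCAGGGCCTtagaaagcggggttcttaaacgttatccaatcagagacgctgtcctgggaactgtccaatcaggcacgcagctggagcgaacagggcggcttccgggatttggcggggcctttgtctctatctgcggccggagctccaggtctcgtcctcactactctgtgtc
ZNF91: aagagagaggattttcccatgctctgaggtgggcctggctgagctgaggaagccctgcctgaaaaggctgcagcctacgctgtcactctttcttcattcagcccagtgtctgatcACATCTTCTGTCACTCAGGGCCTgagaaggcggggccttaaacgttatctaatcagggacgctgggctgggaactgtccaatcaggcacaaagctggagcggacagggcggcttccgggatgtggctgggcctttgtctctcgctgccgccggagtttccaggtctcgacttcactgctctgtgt

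The libraries held 13221152 to 15703544 reads assigned to genes. On the first principal component of all tested genes, with 81.3% of the variance, the groups lay apart. On the second, with 6.99%, both letter C libraries lay apart from the other 4, so values without them are given for some results. Of 11 fibroblast markers 6 fell and 1 rose, where 25% of all genes tested fell and 23.6% rose. The summed normalised count of these markers lay between 206822 and 222326 at 30 h and between 89610 and 105369 at 72 h. Of 6 epithelial markers KRT5 was at 0, CDH1 and EPCAM averaged under 10, and KRT8, KRT18 and KRT19 averaged 10 or more. Of the 6, 2 were tested, of which 1 fell and 0 rose. The epithelial sum lay between 723 and 822 at 30 h and between 570.2 and 681 at 72 h. All 4 endothelial and all 6 leukocyte markers averaged under 10, with sums of 11.2 to 18.98 and 7.11 to 15.8 at 30 h and of 25.2 to 35.7 and 10.2 to 16.8 at 72 h, and CDH5 and CD3E at 0. The part of the marker change in any result below was not tested. In bulk RNA, fewer cells that express a gene and less RNA per cell cannot be told apart. Whether the replicates were separate cultures is not stated, and p-values here reflect only variation among the libraries, which may be technical.

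As a group the chromosome 19 ZNF genes were low in abundance and moved by small amounts. Of the 241, 214 had at least 10 normalised counts (reads divided by the library's size factor) in at least 3 libraries and were tested, 210 of them with at least 10 in all 6. Another 4 had at least 10 in all 3 libraries of 30 h but not in all 3 of 72 h, and 1 of them, ZNF492, was called. The other 27 were not tested, 5 with no read in any library and 22 with some, none with a mean above 10.3. The tested members had a median level of 111 normalised counts, against 166 for the 208 tested ZNF genes elsewhere and 341 for all 13315 genes tested.

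Between 30 h and 72 h, 47 members rose and 16 fell by limma at an adjusted p under 0.05, and 151 were not called. That is 22.0% rising and 7.48% falling, where 23.6% of all genes tested rose and 25% fell. The share that rose was therefore near that of all genes and the share that fell was lower. In either direction 29.4% of members were called, against 48.6% of all genes. Without both letter C libraries 58 members rose and 15 fell, where 3462 and 3619 of all 13315 genes did. The median standard error of a member's log2 fold change was 0.14, against 0.10 over all genes. The median log2 fold change of the members was 0.12, with the middle 50% between -0.08 and 0.31, and that of all genes was 0.01. Only ZNF837, which rose, and ZNF726, which fell, were called with a change of at least 2-fold, as were 11.9% of all genes. The 3 libraries of 72 h were all above the 3 of 30 h for 65 members and all below for 26 of 214, against 29.3% and 29.9% of all genes. In those terms 30.4% of members lay higher and 12.1% lower.

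ZNF genes of other chromosomes had a median shift of about the same size. Of the ZNF genes elsewhere 55 rose and 18 fell of 208 (26.4% and 8.65%), with a median log2 fold change of 0.10. Of the other chromosome 19 genes 193 rose and 116 fell of 731, with a median of 0.09. Without both letter C libraries 60 of the ZNF genes elsewhere rose and 14 fell. The other chromosome 19 genes then had 223 rises and 134 falls. No test of the difference between these sets was made. All reads on the 241 members made up 0.233%, 0.234% and 0.246% of the library at 30 h (A, B and C) and 0.276%, 0.275% and 0.269% at 72 h, and the groups did not overlap. ZNF genes elsewhere took 0.421% to 0.449% at 30 h and 0.481% to 0.486% at 72 h. The bar plot of shares called sets these groups side by side.

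**Figure D1:**
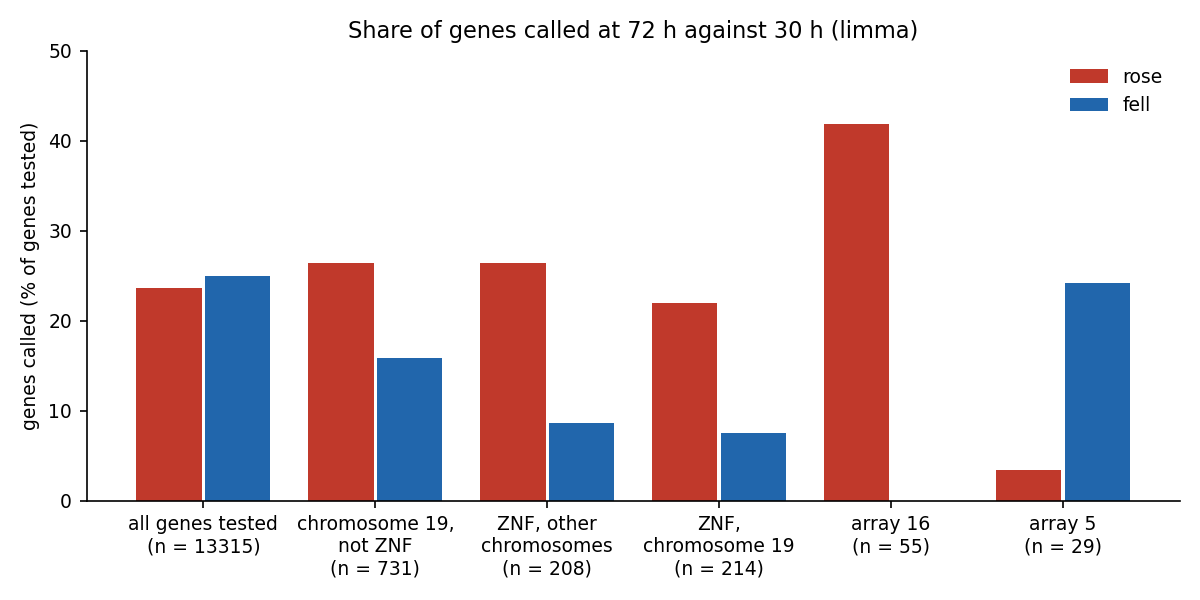
Percent of tested genes that rose (red) or fell (blue) at 72 h against 30 h by limma at an adjusted p under 0.05, for each set of genes with the number tested below it. The chromosome 19 ZNF genes had 22.0% rising and 7.48% falling, array 16 had 41.8% rising and no fall, and array 5 had 3.45% rising and 24.1% falling.

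Calls were also counted by level, as a description with no test. Of the 12 members with a mean of 400 or more normalised counts, 10 rose and 0 fell (10 and 0 by edgeR, 9 and 0 by DESeq2), and at an unadjusted p under 0.05 limma had 11 higher and 0 lower. In that range 26.6% of all genes rose and 29.5% fell, and of ZNF genes elsewhere 28 rose and 7 fell of 53. Of the 106 members between 100 and 400, 29 rose and 4 fell (27.4% and 3.77%, against 23.1% and 25.8% of all genes in that range). The share that rose there was near that of all genes. Of the 96 members under 100, 8 rose and 12 fell, where 19.1% of all genes in that range rose and 16.7% fell. Of the 16 falls 12 were in members under 100, while the rises were spread over all 3 ranges, as the plot of change against level shows.

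**Figure D2:**
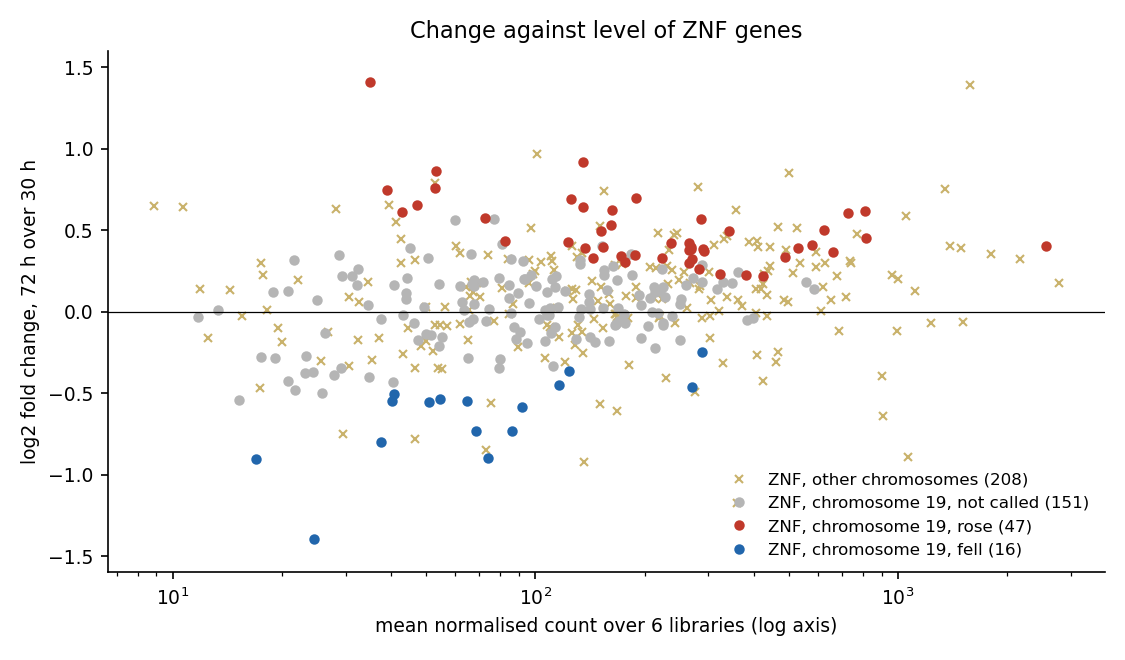
Log2 fold change (72 h over 30 h) of each tested ZNF gene against its mean normalised count over 6 libraries on a log axis. Circles are chromosome 19 members, red where they rose (47), blue where they fell (16) and grey where not called (151), and crosses are the 208 ZNF genes of other chromosomes. All 12 members at 400 or more lie above 0.

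ZNF146, a protein made of fingers with no KRAB pattern, was the most abundant member both in counts and per kilobase of exon. Its normalised counts were 2154, 2177 and 2289 at 30 h and 3032, 2873 and 2849 at 72 h. The lowest 72 h library lay above the highest of 30 h, and the gene rose 1.32-fold (log2 0.40 ± 0.05 SE, adjusted p = 0.000208). ZNF565, whose exons overlap those of ZNF146 on the opposite strand, had a log2 difference of 0.08 (adjusted p = 0.78). Per kilobase of exon ZNF146 went from 532 to 704 normalised counts. The next 4 by that measure were ZNF317, ZNF787, ZNF358 and ZNF428, with levels of 106 to 116 per kilobase at 30 h and 114 to 147 at 72 h, so ZNF146 stood well above them.

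ZNF317, a KRAB protein, had 485, 605 and 649 normalised counts at 30 h and 737, 717 and 776 at 72 h and rose 1.29-fold (adjusted p = 0.0141). ZNF787, without a KRAB pattern, had 388, 393 and 391 at 30 h and 477, 452 and 436 at 72 h. It rose 1.16-fold (adjusted p = 0.0266), but this call was lost without 30 h replicate A (0.077), 30 h B (0.0686), 72 h A (0.101) or 72 h B (0.0578), and by DESeq2 (0.0962). Its groups did not overlap, though the difference was small. ZNF358 had 238, 244 and 239 at 30 h and 233, 213 and 263 at 72 h, and ZNF428 had 199.8, 210.3 and 194 against 214, 226 and 201. The groups of these last genes overlapped, with log2 differences of -0.03 and 0.08 (adjusted p = 0.83 and 0.495).

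The other abundant members that rose were ZNF121, ZNF561, ZNF562, ZNF587, ZNF264, ZNF791 and ZNF134, with log2 fold changes of 0.33 to 0.62. ZNF507 (log2 difference 0.14, adjusted p = 0.161) and ZNF260 (0.18, 0.0633) were not called. Without both letter C libraries ZNF507 and ZNF260 passed (adjusted p = 0.0461 and 0.0172), and ZNF260 also passed without 30 h replicate C alone (0.018). The genes of this paragraph were named after their values were seen, apart from ZNF121.

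By position the members fell into 9 arrays of at least 5 genes, which hold 232 members (208 tested), and 7 short stretches with the other 9. An array here ends where the next member starts more than 1 Mb away, and arrays and stretches are numbered together from the short-arm end. The arrays differed in how many members moved and in which direction, as the plot in chromosomal order shows. Array 16, at the end of the long arm, held 23 of the 47 rises, and array 5, on the short arm beside the centromere, held 7 of the 16 falls. No test of a difference between arrays was made. The 130 tested members outside these arrays had 23 rises and 9 falls (17.7% and 6.92%), with a median log2 fold change of 0.06.

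**Figure D3:**
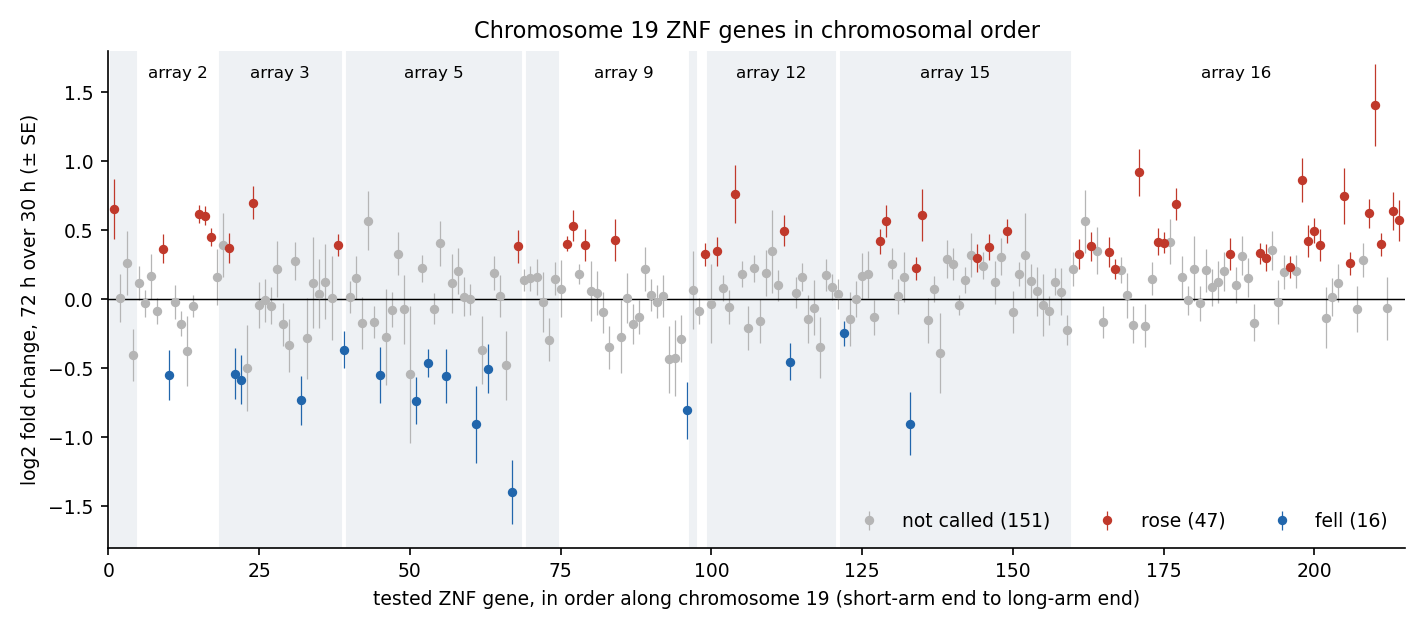
Log2 fold change (72 h over 30 h, bars ± SE) of the 214 tested members in order along chromosome 19, with shaded and white bands for successive arrays. Blue points (fell) are spread over arrays 2 to 15 and number 7 in array 5, and red points (rose) are densest in array 16, which has no blue point.

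Array 16 runs from ZNF628 to ZNF446 (chr19:55476332-58481230) and ends just short of TRIM28, the co-repressor itself (chr19:58544091-58550722). Of its 57 members 55 were tested, and 23 (41.8%) rose and 0 fell, where 23.6% of all genes rose and 25% fell. At an unadjusted p under 0.05 limma had 28 higher and 0 lower, edgeR called 23 and 0 (23.6% and 25.1% of all genes) and DESeq2 15 and 0 (19.9% and 21.9% of all genes). The median log2 fold change was 0.23, and 45 of the 55 were above 0. In 30 of 55 every 72 h library lay above every 30 h library, and the reverse held for 0. The rises were not limited to KRAB genes: 15 of the 39 tested members with a KRAB pattern rose.

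By library, the median deviation of the array 16 members from their own mean over the 6 libraries was -0.15, -0.13 and -0.11 on the log2 scale at 30 h and 0.13, 0.15 and 0.12 at 72 h. The libraries of each time lay close together and the times did not overlap. Without both letter C libraries 23 members rose and 0 fell. The 33 tested genes that lie within the span of array 16 and are not members had 5 rises and 3 falls, with a median of 0.14. Dropping members whose exons overlap another gene left 24 tested, of which 10 (41.7%) rose and 0 fell, with a median of 0.21. Of all genes without such overlap 24.3% rose and 26.6% fell.

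**Figure D4:**
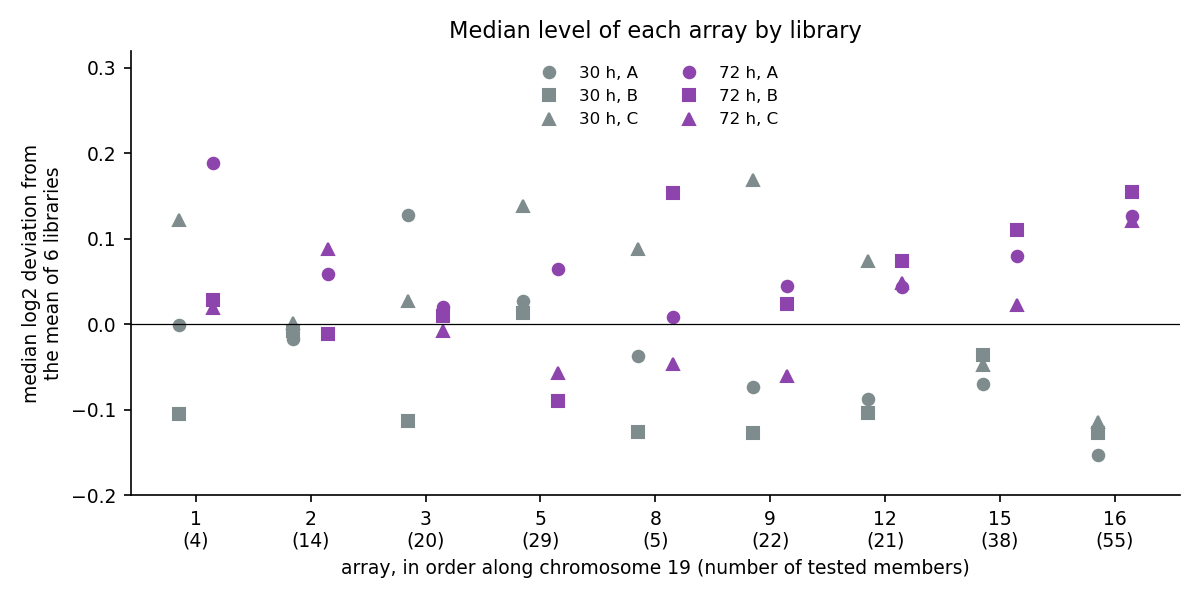
Median log2 deviation of each array's tested members from their mean over the 6 libraries, each point a library (grey 30 h, purple 72 h, circle A, square B, triangle C), with the number of members below each array. The 30 h libraries of array 16 lie between -0.15 and -0.11 and its 72 h libraries between 0.12 and 0.15, array 15 is also split by time, and in the other 7 arrays the times overlap.

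The largest rise of any member was that of ZNF837, a gene of array 16 with 8 fingers and no KRAB pattern (chr19:58367618-58381060). Its normalised counts were 11.7, 20.3 and 25.3 at 30 h and 38.8, 53.2 and 60.8 at 72 h. The groups were well apart although the counts were low, and the gene rose 2.66-fold (log2 1.41 ± 0.30 SE, adjusted p = 0.00339). ZNF667, a KRAB protein with 15 fingers, had 90.7, 74.2 and 118 at 30 h and 159, 182 and 188 at 72 h. It rose 1.89-fold (adjusted p = 0.00151). The antisense gene ZNF667-AS1, whose exons overlap those of ZNF667, had a log2 difference of 0.01 (adjusted p = 0.958).

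ZNF552 had 36.1, 34.5 and 42.2 normalised counts at 30 h and 68.5, 68.0 and 70.3 at 72 h, and rose 1.82-fold (adjusted p = 0.00168). Its exons overlap those of an opposite-strand member that was not called (adjusted p = 0.194). ZNF460, which is known to bind Alu repeats, had 94.6, 99.6 and 92.8 at 30 h and 166, 145 and 155 at 72 h, and rose 1.61-fold (adjusted p = 0.00086). In both the groups were clearly separate and the replicates close. ZNF324 (106 ± 17.4 to 164 ± 6.13, mean ± SD, n = 3) rose 1.56-fold and ZNF8 (128 ± 9.11 to 198 ± 7.29, n = 3) rose 1.54-fold. Exons of ZNF324 overlap those of its neighbour ZNF446, which rose 1.49-fold, so reads of that pair are uncertain. Exons of ZNF8 overlap those of other annotated genes on the same strand, so its reads are uncertain too. ZNF587 had 485, 489 and 582 at 30 h and 751, 677 and 767 at 72 h and rose 1.41-fold (adjusted p = 0.0012), and its exons overlap those of ZNF814 on the opposite strand, which rose 1.34-fold. ZNF446, ZNF587 and ZNF814 were named after their values were seen.

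Array 5, from ZNF101 to ZNF254 (chr19:19668796-24129961), is the primate-expanded group of KRAB genes beside the centromere. Of its 36 members 29 were tested, and 1 rose and 7 fell (3.45% and 24.1%, where 23.6% and 25% of all genes did), with a median log2 fold change of -0.07. The share that fell was thus near that of all genes, and the share that rose was lower. By library the median deviation was 0.03, 0.01 and 0.14 at 30 h and 0.06, -0.09 and -0.06 at 72 h, so the times overlapped. Without both letter C libraries the median was 0.02, with 3 rises and 5 falls. The count of falls went from 7 to 3 without 30 h replicate A, 30 h B or 72 h C, and to 4 without 72 h B, and that of rises to 0 without 30 h A, 30 h B or 72 h C, to 3 without 30 h C and to 2 without 72 h B. DESeq2 called 3 falls. The levels were low, with a median of 61.9 normalised counts against 125 in array 16.

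ZNF726, with 17 fingers, had the largest fall of any member (chr19:23914876-23945159). It had 35.1, 37.6 and 34.8 normalised counts at 30 h and 13.3, 15.7 and 10.5 at 72 h. The groups were far apart at these low levels, and the gene fell 2.63-fold (log2 -1.40 ± 0.23 SE, adjusted p = 0.000927). Its exons overlap those of another annotated gene on the same strand, so its reads are uncertain. ZNF85 (chr19:20923222-20950697) had 114, 91.4 and 117 at 30 h and 58.2, 77.6 and 57.7 at 72 h, and fell 1.66-fold (adjusted p = 0.00547). ZNF714, the most abundant of the 7, had 295, 336 and 307 at 30 h and 239, 239.8 and 202 at 72 h, and fell 1.38-fold (adjusted p = 0.00385). These calls held whichever single library was left out. ZNF726 is outside the rule for named genes, which asks for a mean of 50, and was chosen after its values were seen.

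The other 4 falls of array 5 each lost their call in several of the fits that left out a library. ZNF492 fell 1.87-fold from a mean of 22.3 (adjusted p = 0.0214), but was not called without 30 h replicate A (0.0602), 30 h B (0.0749) or 72 h C (0.0603). ZNF738, in whose translated sequence no finger was found, fell 1.47-fold (0.0396), and was not called without 30 h A (0.122), 30 h B (0.117), 72 h B (0.062) or 72 h C (0.114). ZNF682 (adjusted p = 0.0479) lost its call without any library but 72 h A, with adjusted p from 0.087 to 0.153, and ZNF724 (0.0402) without any of the 6, with 0.0516 to 0.143. Without both letter C libraries neither was called (0.0877 for ZNF682 and 0.0845 for ZNF724). The gene that rose, ZNF254 (1.31-fold, 0.0228), lost its call without 30 h A (0.0905), 30 h B (0.0793), 72 h A (0.0911) or 72 h C (0.056). By DESeq2 none of the 4 falls was called, with adjusted p of 0.0963 for ZNF492, 0.104 for ZNF738, 0.153 for ZNF682 and 0.158 for ZNF724. ZNF492, ZNF682, ZNF724 and ZNF254 were named after their values were seen.

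Array 5 also holds ZNF91 and ZNF93, known for silencing retrotransposons, and neither was called. ZNF91, which binds SVA elements and has 32 fingers, had 157, 136 and 177 normalised counts at 30 h and 188, 165 and 183 at 72 h (log2 difference 0.19 ± 0.12 SE, adjusted p = 0.225). ZNF93, which binds LINE-1 elements, had 134, 130.0 and 147 against 129, 112.5 and 124 (-0.17 ± 0.12 SE, 0.261). ZNF675, an inhibitor of TRAF6 signalling, had 117, 90.4 and 120.2 against 121, 114 and 96.5 (0.02 ± 0.15 SE, 0.925). ZNF91 and ZNF675 overlapped between times, while the 3 libraries of ZNF93 at 72 h lay just below those at 30 h.

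In array 2 (ZNF557 to ZNF846, chr19:7069444-9793180) 4 of 14 tested members rose, ZNF317 and the neighbours ZNF121, ZNF561 and ZNF562, and 1, ZNF699, fell. Those are 28.6% and 7.14%, where 23.6% of all genes rose and 25% fell. The share that rose was thus near that of all genes. ZNF121 (chr19:9560353-9584533) had 629, 663 and 629 normalised counts at 30 h and 1041, 963 and 945 at 72 h. It rose 1.53-fold (log2 0.62 ± 0.06 SE, adjusted p = 4.5e-05), the lowest p of any member. ZNF561 (chr19:9604680-9621399) had 532, 589 and 609.5 at 30 h and 903, 889 and 841 at 72 h, and rose 1.52-fold (log2 0.61 ± 0.07 SE, adjusted p = 1e-04). ZNF562 (chr19:9641808-9675086) had 661, 681 and 722 at 30 h and 905, 960.0 and 957 at 72 h, and rose 1.37-fold (log2 0.45 ± 0.06 SE, adjusted p = 0.000274). In all 3 the replicates were tight and the times far apart, as the plot of counts by library shows.

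**Figure D5:**
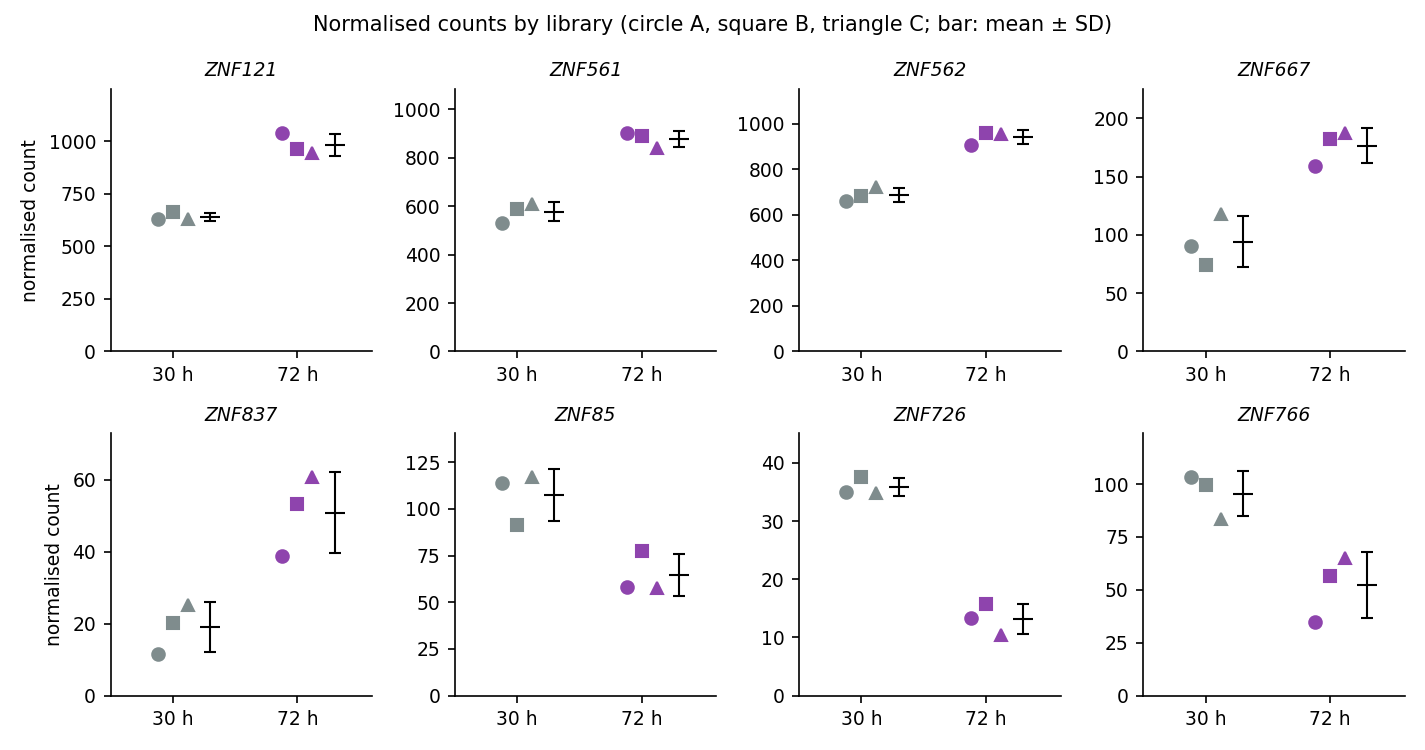
Normalised counts of 8 members in each library (circle A, square B, triangle C, grey 30 h, purple 72 h) on linear axes from 0, with the mean ± SD of 3 libraries beside them. ZNF121, ZNF561, ZNF562, ZNF667 and ZNF837 are higher in every 72 h library and ZNF85, ZNF726 and ZNF766 are lower in every 72 h library.

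The 17 bases shared by ZNF121, ZNF561 and ZNF562, printed above, were found on either strand in 4 of 35116 RefSeq promoter windows, those 3 and that of ZNF561-AS1. They are the longest stretch common to these 3 windows and were taken from them, so their rarity in other windows is no separate result. ZNF561-AS1 is transcribed the other way from the ZNF561 start, and its log2 difference was 0.01 (adjusted p = 0.961). Its exons overlap those of ZNF561 and ZNF562 on the opposite strand. In each of the 3 promoters the stretch is followed by CGCCATCTT, the reverse complement of the YY1 motif AAGATGGCG. The CRE itself occurred in the promoters of 8 members, of which ZNF121, ZNF561, ZNF562 and ZNF460 rose, and ZNF426 (-0.05, 0.632), ZNF266 (-0.18, 0.135), ZNF543 (0.16, 0.423) and ZNF547 (0.22, 0.472) were not called (log2 difference, adjusted p). That is 4 of 8 rising, the 3 neighbours included, where 22.0% of tested members and 23.6% of all genes rose. None of the 8 fell, also at an unadjusted p under 0.05 with limma, edgeR or DESeq2. At an adjusted p under 0.05 by limma 7.48% of members and 25% of all genes fell. The lack of a fall among 8 members therefore does not set them apart from other members. The shared stretch was found after the values of these genes were known, and a match is a description of letters, not of a bound site.

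The 23 bases shared by ZNF85, ZNF726 and ZNF91 were found in 6 promoter windows, the others being ZNF492, ZNF675 and ZNF208. Of the 6 genes ZNF85, ZNF726 and ZNF492 fell, ZNF91 and ZNF675 were not called, and ZNF208 was not tested. The stretch was thus present in members that fell and in members that did not.

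RefSeq windows were found for 208 of the 241 members, with 255 windows in all. The ETS motif CCGGAAG, searched on both strands, occurred in 38.8% of them, against 10.3% of all 35116 windows and 31.4% of those of ZNF genes elsewhere. By array the share was 72.4% of 29 windows in array 5, 53.4% of 58 in array 16 and 7.69% of 26 in array 3. It was 34.0% in members that rose, 47.1% in those that fell and 41.2% in those not called. The promoters of array 5 also had fewer CpG dinucleotides, with a median of 10 per window against 23 in array 16, 20 in all members and 14 in all windows. The YY1 motif was in 2.75% of member windows and 1.75% of all windows, and an E2F motif (TTTCCCGC or TTTGGCGC) in 4.31% and 2.27%. The CRE was in 3.14% of member windows against 1.85% of all, but in 33.3% of the 15 windows of array 2. The NF-kB motif was found in 0 of 255 member windows and in 0.191% of all windows.

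The remaining arrays had few calls. Array 15 (ZNF175 to ZNF331, chr19:51571298-53580269) had 7 rises and 2 falls of 38 tested (18.4% and 5.26%, against 23.6% and 25% of all genes). Its median was 0.14 and its library medians did not overlap between times. Array 3 had 3 rises and 3 falls of 20 (15% each), and array 9 had 4 and 1 of 22 (18.2% and 4.55%). Array 12 had 3 and 1 of 21 (14.3% and 4.76%), and array 1 had 1 and 0 of 4 (25% and 0%). The medians of arrays 3, 9, 12 and 1 were 0.00 to 0.14. Array 8 had no call among 5 by limma. The rises in array 15 included ZNF432 (1.48-fold, adjusted p = 0.00292), ZNF160 (1.41-fold, 0.00113), ZNF614 (1.34-fold, 0.0037) and ZNF320 (1.30-fold, 0.00861), all KRAB genes with 10 to 20 fingers. Exons of ZNF432 and of ZNF320 overlap those of a same-strand member that was not called (adjusted p = 0.0766 and 0.0585), so their reads are uncertain. ZNF160 had 284, 309 and 258 normalised counts at 30 h and 404, 397 and 395 at 72 h. ZNF566 of array 9 rose 1.45-fold (0.00326) and ZNF225 of array 12 rose 1.41-fold (0.00492). These 6 genes were named after their values were seen, and their calls held without any single library.

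Outside arrays 5 and 16 the largest rises after those given above were in KRAB genes. ZNF440 (array 3, 11 fingers) had 144, 165 and 125 normalised counts at 30 h and 239, 245 and 219 at 72 h, and rose 1.62-fold (adjusted p = 0.00104). ZNF404 (array 12) had 37.0, 46.7 and 32.7 at 30 h and 80.7, 53.2 and 66.1 at 72 h, and rose 1.69-fold (0.0134), but was not called without 72 h replicate A (0.0623). Exons of ZNF404 overlap those of another annotated gene on the same strand, so its reads are uncertain. ZNF554 (array 1) had 29.2, 32.5 and 48.5 against 65.4, 54.1 and 52.4, and rose 1.57-fold (0.0321). It was not called without 30 h A (0.114), 30 h B (0.101), 72 h A (0.117) or 72 h B (0.0602), nor by DESeq2 (0.0717).

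Among the falls outside array 5, ZNF766 (array 15, 7 fingers) was the largest of those the rule names. It had 103, 99.6 and 83.3 normalised counts at 30 h and 34.7, 56.7 and 65.0 at 72 h, and fell 1.87-fold (adjusted p = 0.00851). ZNF44 (array 3, 14 fingers) had 81.9, 79.2 and 94.9 against 63.4, 47.1 and 44.1, and fell 1.66-fold (0.00709). ZNF573 (array 9, named after its values were seen) fell 1.74-fold (0.00948). These calls held without any single library.

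The other falls named by the rule, ZNF441, ZNF699, ZNF823, ZNF234 and ZNF333, were between 1.29-fold and 1.50-fold. Each lost its call in several of the fits that left out a library. ZNF441 (adjusted p = 0.0204) was not called without 30 h replicate A (0.0531), 30 h B (0.0917) or 72 h A (0.0816). ZNF699 (0.0316) was not called without 30 h B (0.0704), 30 h C (0.101), 72 h A (0.0593) or 72 h B (0.104), and ZNF823 (0.0354) without 30 h A (0.0977), 30 h B (0.136), 72 h A (0.114) or 72 h C (0.0647). ZNF234 (0.0211) was not called without 30 h B (0.0648), 30 h C (0.0677) or 72 h A (0.0727), and ZNF333 (0.0457) without any library but 72 h C (0.0777 to 0.152). By DESeq2 ZNF699 (0.0644), ZNF823 (0.0929) and ZNF333 (0.115) were not called. Of all members called, 28 of the 47 rises and 6 of the 16 falls were called in each of the 6 fits that left out a library. The like share over all genes is not given here. The number of falls was 9 without 30 h A, 6 without 30 h B and 9 without 72 h A, and 8 by DESeq2. Over all 13315 genes the falls went from 3328 to 2744, 2689 and 2829 without those libraries, and to 2914 by DESeq2. Fewer falls were thus called over all genes too.

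None of the well-studied members of other arrays listed here was called. ZNF274, which brings SETDB1 to the ends of zinc finger genes, had 183.3, 182.9 and 171 normalised counts at 30 h and 181, 213 and 129 at 72 h (log2 difference -0.07 ± 0.17 SE, adjusted p = 0.765). ZNF224, a KRAB repressor, had 181, 167 and 213 against 195, 205 and 199 (0.10 ± 0.11 SE, 0.482). In both the times overlapped. ZNF649 (0.00 ± 0.13 SE, 0.985), ZNF568 (-0.18 ± 0.15 SE, 0.344) and the imprinted gene ZNF331 (-0.22 ± 0.11 SE, 0.113) were also not called.

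A KRAB-like pattern was found in the longest translated coding sequence of 193 members, which had a median of 13 fingers, and was not found in 46. The pattern can miss boxes that have diverged, so the second class is a mixed one. Of the 176 tested members with the pattern 35 rose and 14 fell (19.9% and 7.95%), with a median log2 fold change of 0.10. Of the 37 without it 12 rose and 2 fell (32.4% and 5.41%), with a median of 0.18. Of all genes 23.6% rose and 25% fell, and no test between the classes was made. Members without the pattern were also more abundant, with a median of 196 normalised counts against 107. Among ZNF genes elsewhere 11 rose and 5 fell of 76 with the pattern (14.5% and 6.58%). Without it 44 rose and 13 fell of 131 (33.6% and 9.92%).

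Of 41 genes of the co-repressor and heterochromatin machinery through which KRAB proteins work, 12 rose and 8 fell (29.3% and 19.5%, against 23.6% and 25% of all genes), with a median log2 fold change of 0.01. The share called in either direction, 48.8%, was near that of all genes (48.6%). TRIM28 had 4268, 4123 and 3903 normalised counts at 30 h and 3715, 3955 and 3719 at 72 h (log2 difference -0.11 ± 0.06 SE, adjusted p = 0.128), and the times overlapped. Without both letter C libraries it passed, with -0.13 and 0.0402. SETDB1, the histone methyltransferase that TRIM28 recruits, had 270.02, 252 and 266 against 358, 310.4 and 344, and rose 1.28-fold (0.00684).

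Those that rose included MORC3, an ATPase of nuclear bodies (1.52-fold, adjusted p = 4.21e-05), DAXX, a histone chaperone (1.43-fold), RBBP4, a histone-binding subunit of several complexes (1.31-fold), EHMT2, a histone methyltransferase (1.29-fold), and HDAC1 (1.26-fold) and CHD4 (1.195-fold) of the NuRD complex. Those that fell included both main factors of maintenance DNA methylation. UHRF1, which guides maintenance methylation, had 719, 761 and 682 normalised counts at 30 h and 386, 372 and 330.4 at 72 h, and fell 1.99-fold (adjusted p = 1.21e-05). DNMT1, the maintenance methyltransferase, fell 1.35-fold (0.00125), SUV39H1, a heterochromatin histone methyltransferase, 1.59-fold (0.00158) and CHD3, another NuRD subunit, 1.70-fold (1.44e-05). TRIM28, SETDB1, HDAC1 and CHD4 were named after their values were seen.

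The ZNF genes of other chromosomes with the largest calls are given for comparison. ZNF217, an amplified oncogene in breast cancers, had 818, 799 and 1009 normalised counts at 30 h and 2465, 2251 and 2143 at 72 h, and rose 2.62-fold (adjusted p = 6.96e-06). ZNF395 rose 1.96-fold (0.00146) and ZNF267 by 0.85 on the log2 scale (2.17e-05). ZNF703, also amplified in breast cancers, fell 2.26-fold (2.39e-05) from 499 ± 51.1 to 220.4 ± 24.1 (mean ± SD, n = 3), and ZNF367 fell 1.90-fold (0.0063). ZNF469, in which mutations cause a collagen disorder of the cornea, fell 1.85-fold (0.0165), and was not called without 72 h replicate C (0.0549) or with no filter on low values (0.0803). Like ZNF837 on chromosome 19, ZNF217 and ZNF703 changed by more than 2-fold.

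The members are copies of each other, which limits how well reads are assigned, and the exons of 133 members (116 tested) overlap exons of another annotated gene. Such overlaps are not given for every gene named above. Leaving out members with such overlap, 19 rose and 9 fell of 98 (19.4% and 9.18%), with a median log2 fold change of 0.05 in place of 0.12. Of all genes without such overlap 24.3% rose and 26.6% fell, with a median of -0.00256. Of ZNF genes elsewhere without it, 27 rose and 14 fell of 111 (24.3% and 12.6%), with a median of 0.07. In the authors' deposited table, for comparison, 227 members have an adjusted p, of which 30 rose and 7 fell at the same threshold (15.4% and 16.9% of all genes with an adjusted p there).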

How the data were processed

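Per the submitters' processing notes, the tools were Trimmomatic 0.35, STAR 2.5.1b and DESeq2 1.18.1 on GRCh38; no label or header names the read counter or the strand setting. The signal values deposited by the authors are reads per gene divided by a size factor of the library (0.948 to 1.15), and 100% came out as whole reads within 0.01. Per the file headers the authors' table also holds their log2 fold changes, a score and p-values, used only where named. The 13315 genes that reached 10 normalised counts in 3 or more libraries were compared on log2(value + 1) with limma 3.58.1 (trend, robust; R 4.3.3), Benjamini-Hochberg adjusted over all of them, with a threshold of 0.05. Folds are on that scale, which understates changes of low genes. Repeats used edgeR 4.0.16, DESeq2 1.42.0 and limma-voom on the recovered reads, other pseudocounts, scalings and filters, and leaving out libraries. On simulated counts of 13143 genes, where 200 genes drawn from all levels were changed, the test found 70.4% of 1.5-fold and 76.3% of 2-fold changes. In the data 48.6% of all genes were called and the members had lower counts than all genes. These are therefore not rates for the members.

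Chi-square per degree of freedom was 3.35 to 16.6 within groups and 111 to 163 between them, so no library was counted as a repeat. GENCODE 29 gave exon lengths, overlaps and coding sequences (all 241 identifiers matched, 229 with their version). Fingers were counted as the C2H2 pattern and KRAB boxes by a pattern. Members, lists and the rule for named genes were chosen with earlier results of these data known. The rule takes the 10 largest called rises and falls without overlap and averaging 50 or more in the higher group, the 5 members highest per kilobase, a fixed list of 9, and the leading 3 ZNF genes elsewhere and 4 co-repressor genes in each direction.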

Additional observations from a re-analysis of the deposited data

How the results depend on the processing

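Of 81 named genes, none changed direction of a call under any alternative. Of their 1458 values over the alternatives, 1370 kept the outcome of the main fit, 83 lost a call and 5 gained one. Chromosome 19 ZNF genes that fell numbered 8 by DESeq2 and 7 in the authors' deposited table, with 30 rising there, and 6 to 11 with one library left out. The median log2 fold change of the chromosome 19 ZNF genes was 0.0927 with no filter and 0.16 without both letter C libraries. Without members whose exons overlap another gene, 19 rose and 9 fell of 98 (median 0.0457), where 24.3% and 26.6% of all genes without such overlap did. Under quantile normalisation the median was 0.0826 for the co-repressor list, 0.0295 for all genes and 0.27 for array 16, and without letter C that of the co-repressor list was 0.0475. With one library left out the medians were 0.0822 to 0.141 for ZNF genes elsewhere, 0.00555 to 0.0514 for the co-repressor list, 0.23 to 0.26 for array 16 and -0.169 to -0.0208 for array 5.

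In array 16, 15 rose by DESeq2, 13 in the authors' deposited table and 10 without overlapping members (median 0.21). In array 5, 2 rose with a pseudocount of 5 or by edgeR, 4 under quantile normalisation, 3 with no filter, 3 under the replicate block and 3 without letter C (median 0.0164), against 0 to 3 with one library left out. Its falls numbered 3 by DESeq2, 3 in the authors' deposited table and 3 to 6 with 1 library left out. Without overlapping members 0 rose and 4 fell of 14 (0% and 28.6%, against 24.3% and 26.6% of all genes without such overlap). The cause was not tested.

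Same-lettered libraries correlated at 0.00696 (A), 0.172 (B) and 0.185 (C) after group means were removed. The labels do not say what a letter marks, so the main fit used no block. Whether libraries of a letter share an effect was not tested. With the replicate block 52 members rose and 15 fell. Low read numbers limit the rarest members, and genes with near-identical copies may have reads split between them.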
